A study of Mus musculus with 70 samples.

Results

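B cells and T cells from the blood of unstressed mice were compared gene by gene, to describe the expression programmes that separate the 2 lymphocyte lineages. The comparison used the 12 libraries labelled CON with the cell type Bcells (6) or Tcells (6), out of 70 libraries in the series. CON mice were C57BL/6J animals, 7 weeks old when purchased, that were housed in pairs across a Plexiglas partition and received no social defeat. Blood was collected from the trunk, red cells were lysed, and leukocytes stained for CD11b, Ly6C, Ly6G, B220 (a B cell form of CD45) and CD90.2 (on T cells) were sorted by flow cytometry. Thy1, which encodes CD90, and Ptprc, which encodes B220, were therefore used by the sort and are not findings. CD11b, Ly6C and Ly6G were stained for the same sort, so Ly6c2 and Ly6g in the marker lists below are not independent of it. The GEO labels give brain as the source of every library, whereas the design text and the methods of the study name blood. The 12 libraries labelled SUS (6 Bcells and 6 Tcells), from mice of the same strain that had become susceptible when exposed to 10 days of social defeat, were used only to repeat the comparison.

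B cells recognise antigen with a membrane immunoglobulin that signals through the CD79 chains and the kinases SYK, LYN and BTK, and they present the antigen they take up on MHC class II molecules to helper T cells. T cells recognise peptides with a T cell receptor that signals through the CD3 chains and the kinases LCK and ZAP-70. The B lineage is held in place by transcription factors such as PAX5 and EBF1, the T lineage by factors such as TCF-1 (Tcf7) and BCL11B. Blood holds mostly resting, recirculating cells of both lineages, with a smaller number of activated, memory and killer cells.

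Libraries held between 27257572 and 43437501 counts, and between 16495 and 22321 genes with at least 1 count. Levels below are CPM, that is, counts scaled to the library size after TMM normalization, given as the lowest, the median and the highest of the 6 libraries of a cell type. The marker genes separated the groups in all 12 libraries. Cd79a, a signalling chain of the B cell receptor, was at 1351, 1457 and 1539.7 CPM in B cells and at 3.82, 5.83 and 9.38 in T cells. Ms4a1 (CD20) was at 502, 645 and 1125 CPM in B cells and at 0, 0.0925 and 1.15 in T cells. Cd3e, a signalling chain of the T cell receptor, was at 0.0347, 0.136 and 0.504 CPM in B cells and at 357, 428 and 479.7 in T cells. Lck, the Src family kinase of T cells, was at 11.2, 15.8 and 20.3 CPM in B cells and at 379, 472 and 530.3 in T cells. No library of one type overlapped the other type for any of these 4 genes, so the cell types named in the labels held.

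Some libraries stood apart within their group. The T cell libraries 53, 56 and 59 had 96.8, 142 and 45.3 CPM of Lyz2, the lysozyme of monocytes and macrophages, against 4.20 to 4.81 in T cell libraries 62, 65 and 68 and 16.0 to 32.1 in B cells. The summed level of the 12 monocyte markers was 216 to 321 CPM in these 3 libraries, 96.8 to 188 in the other T cell libraries and 38.4 to 62.0 in B cells. Of 11 of these markers tested, 4 were called higher in T cells and none in B cells, against 10.6% and 9.85% of all genes. In T cell libraries 62, 65 and 68 the sum was above that of B cells, whereas Lyz2 was below it. The list also holds Ly6c2, Ccr2 and Cx3cr1, and Cx3cr1 was at 29.7 CPM in library 68. What part of the sum came from monocytes was not tested. Neutrophil markers summed to at most 14.8 CPM in any library. Red cell markers, led by the globins, summed to 1261 to 7215 CPM in B cells against 853 to 2717 in T cells, with the highest value in B cell library 38, which also had the fewest genes with a count. Without the T cell libraries 53, 56 and 59, a setting chosen after seeing the data, 1760 genes were called higher in B cells and 1691 in T cells, and 1477 and 1506 of the genes called below were among them.

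Of 16763 genes tested, 3434 (20.5%) were called, meaning an adjusted p under 0.05 in edgeR's quasi-likelihood test and a change of more than 1 on the log2 scale. They split into 1651 (9.85%) higher in B cells and 1783 (10.6%) higher in T cells. The counts of list members called below are to be read beside these shares. The median log2 fold change (B minus T) over all genes tested was -0.04. Counting genes whose 6 B cell levels did not overlap the 6 T cell levels, whatever their p, gave 4050 genes (24.2%). The called changes were often large: 686 genes higher in B cells and 862 higher in T cells differed by more than 3 log2 units, and 381 and 459 by more than 6. Among called genes, 1230 of those higher in B cells and 1299 of those higher in T cells were protein-coding. In these bulk samples a lower level cannot be told apart from fewer cells that express the gene, and the p-values measure the spread between libraries, which the labels do not tie to single mice.

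**Figure D1:**
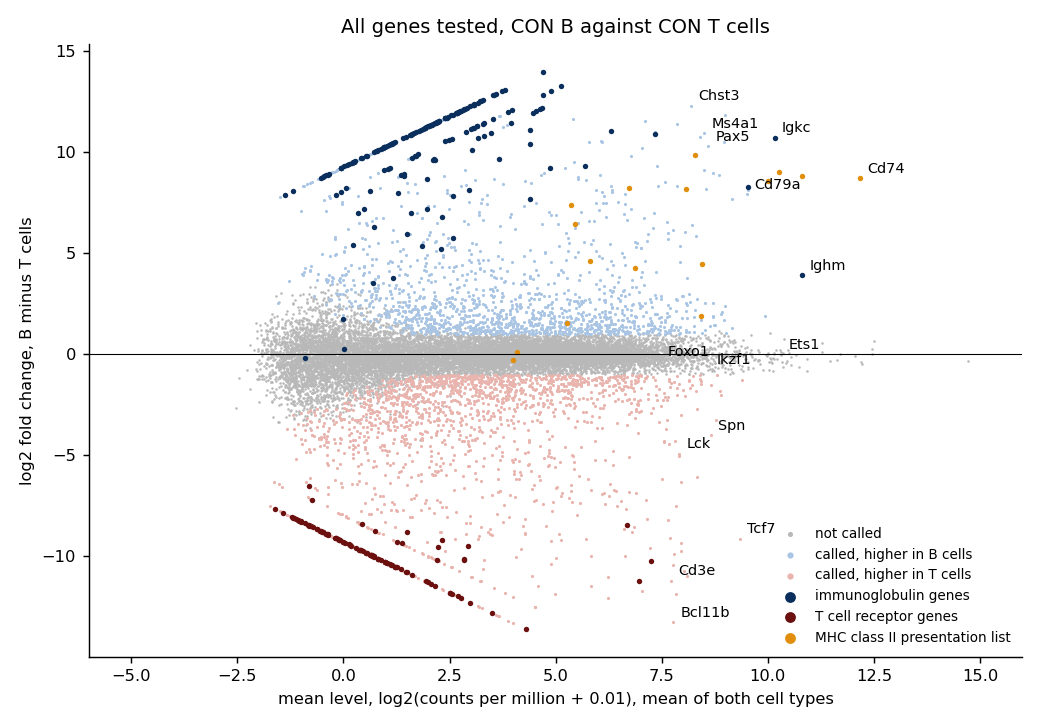
Each point is 1 of the 16763 genes tested, with its mean level over both cell types, log2(CPM + 0.01), on the horizontal axis and its log2 fold change (B minus T) on the vertical axis. Genes called higher in B cells (1651) and in T cells (1783) are coloured and a few are named. Immunoglobulin genes are dark blue, T cell receptor genes dark red and MHC class II genes orange, and the straight diagonal edges are genes with 0 counts in every library of one cell type.

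Genes that were present in one lineage and near absent in the other were counted separately, as those with at least 1 CPM in every library of one type and at most 3 counts over the 6 libraries of the other together. There were 178 such genes for B cells, of which 130 were antigen receptor gene segments and 26 other protein-coding genes, and 179 for T cells, of which 62 were receptor segments and 80 other protein-coding genes. Among protein-coding genes with the largest changes toward B cells were Chst3, a chondroitin sulfotransferase, at 453, 589 and 719 CPM in B cells and at 0, 0.0987 and 0.240 in T cells, and Fcmr, the receptor for IgM, at 896, 1052 and 1108 CPM in B cells and at most 0.675 in T cells. Diras2, a small GTPase of the Ras family, was at 12.7, 16.0 and 28.6 CPM in B cells and had no count in any T cell library, so it was at least 239.7-fold higher in B cells against a floor of 3 counts per library. Fam167a was at least 186-fold higher on the same floor, at 10.2, 14.3 and 17.0 CPM, and Hs3st1, a heparan sulfate sulfotransferase, at least 126-fold higher. A pair of cytokine genes belonged to the same group. Il24, which lies beside Fcmr (Il24 at chr1:130882074-130887454 and Fcmr at chr1:130865669-130880791, mm10), was at 1.81, 11.1 and 14.0 CPM in B cells with no count in T cells, at least 134-fold higher, and Il12a, the p35 subunit shared by IL-12 and IL-35, was at 14.3, 20.2 and 25.8 CPM in B cells and at most 0.0222 in T cells. Fcmr stood at far higher levels than Il24, and whether reads running on from Fcmr were counted in Il24 was not tested.

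The largest changes toward T cells included several genes with no count in any B cell library. Tmie, a transmembrane protein best known from the hair cells of the inner ear, was at 21.2, 30.4 and 41.2 CPM in T cells, at least 369-fold higher than in B cells. Slc6a19, a neutral amino acid transporter of gut and kidney, was at 14.4, 32.1 and 38.5 CPM, at least 339.6-fold higher. Ephb6, an ephrin receptor that lacks kinase activity, was at 12.1, 26.1 and 32.4 CPM, at least 288-fold higher. Trat1, an adaptor of the T cell receptor, was at 15.1, 22.6 and 40.1 CPM, at least 281-fold higher. Lypd6b, Lrrc75b and Sfmbt2, a Polycomb-related gene, were at least 222-, 208- and 161-fold higher. Bcl11b, the T lineage zinc finger factor, had the largest change of any gene of this group that had counts in B cells, at 373, 442 and 482 CPM in T cells and at 0, 0.0156 and 0.108 in B cells. Dapl1, known from naive T cells, and Gprin3 had medians of 46.6 and 46.0 CPM in T cells and of 0 in B cells. The called genes with the highest levels in T cells were Tcf7, Ahnak, Utrn, Spn and Dgka, with mean CPM of 1299.9, 951, 792, 761 and 756. Of these Ahnak, a giant scaffold protein, changed least, from 351, 393 and 479.7 CPM in B cells to 689, 808 and 1528 in T cells.

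The long noncoding RNAs with the largest changes included 4 that lay in or beside genes of the lineage. A630014C17Rik (chr11:52276055-52286179, mm10), annotated as antisense, overlaps Tcf7 (chr11:52252371-52283014) and was at 18.5, 24.8 and 33.2 CPM in T cells with no count in B cells. Whether the counting used the strand is not stated in the sources used here, so reads of Tcf7 and of this gene cannot be told apart where they overlap. Gm39323 (chr9:44011735-44041059) ends before the start of Thy1 (chr9:44043384-44048579) and was at 12.2, 18.5 and 23.7 CPM in T cells with no count in B cells. Gm44174 (chr6:71353035-71373284) lies between Cd8b1 (chr6:71322788-71337494) and Cd8a (chr6:71373427-71379173) and was at 7.68, 11.2 and 17.7 CPM in T cells and at most 0.0320 in B cells. In B cells, Gm43388 (chr16:19212660-19236776) lies in the immunoglobulin lambda locus, between Iglc2 (chr16:19198396-19200351) and Iglv3 (chr16:19241207-19241690), and was at 17.4, 24.4 and 34.4 CPM with at most 0.0391 in T cells. Gm11690 and Gm16170, both on chromosome 11, had medians of 13.5 and 24.2 CPM in B cells and of 0 in T cells. Over all genes tested, 54 of 512 lincRNAs were called higher in B cells and 64 in T cells, and 58 and 81 of 773 antisense genes. These counts lie near the shares of all genes tested, 9.85% higher in B cells and 10.6% in T cells.

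All 10 genes of the B cell receptor complex and its co-receptor were called higher in B cells, with a median log2 fold change of 7.92. Cd22, an inhibitory co-receptor, was at 704, 876 and 940.2 CPM in B cells and at most 3.77 in T cells, and Cr2 (CD21), the complement receptor, at 237, 275 and 371 against at most 8.97. Cd81, a tetraspanin of the same complex, was at 111, 137 and 148 CPM in B cells and at 4.09, 4.65 and 6.18 in T cells (log2 fold change 4.76 ± 0.14, SE, and edgeR adjusted p 6.26e-15, in the order also used for the genes that follow). Siglecg, an inhibitory lectin, was at 142, 203 and 245 CPM in B cells and at 0, 0.0984 and 3.78 in T cells. The groups did not overlap for any of these 4 genes.

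The heavy chain constant counts of the B cell libraries were mostly those of IgM and IgD. Shares here are of RNA counts, without correction for gene length. Ighm, the IgM heavy chain, took 66.7% to 72.6% of all heavy chain constant counts in B cells (median 69.0%, n = 6 libraries) and Ighd, the IgD heavy chain, 26.3% to 32.8% (median 30.6%). All other heavy chain classes together took 0.290% to 1.12% (median 0.399%), with Igha at 3.67, 6.48 and 39.2 CPM, Ighg2b at 2.21, 6.68 and 9.35, and Ighg3 at 2.74, 5.00 and 8.83. Igkc took 76.6% to 80.7% of light chain constant counts (median 80.3%), and kappa segments 89.7% to 91.6% of light chain variable counts (median 90.7%). Sequences of the constant genes are alike within a class, and how reads with several matches were counted is not stated in the sources used here, so the split among Ighg genes and among Iglc1, Iglc2 and Iglc3 is uncertain. Of 113 annotated Ighv segments, 105 had a count in B cells and 88 had one in each of the 6 libraries, and of 100 Igkv segments 99 and 89. Ighv1-26, at 38.3, 43.1 and 53.8 CPM, took a median of 6.41% of heavy variable counts, and Igkv1-117 took 6.15% of kappa variable counts. The 10 highest segments took a median of 36.1% of heavy and 41.0% of kappa variable counts. All 74 Ighv, 81 Igkv and 3 Iglv segments that passed the filter on low counts were called higher in B cells, which is a description only, since a segment could pass only through the group in which it was high.

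Ighm kept more of its level in T cells than several other genes that define B cells. It was at 3004, 3342 and 3962 CPM in B cells and at 196, 227 and 248 in T cells, so that the T cell level was 6.57% of the B cell level (3.93 ± 0.11, 3.23e-15). The same share was 0.411% for Cd79a, 0.326% for Ighd, 0.0565% for Igkc, 0.0828% for Pax5 and 0.0474% for Ms4a1. In CON monocytes, on CPM normalized over all 22 CON libraries, Ighm was at 154 ± 14.5 (mean ± SD, n = 6) in Ly6C-high and 127 ± 14.8 (n = 4) in Ly6C-low libraries, against 238 ± 24.6 in T cells, whereas Ighd was at 1.69 ± 1.38, 1.42 ± 0.91 and 5.12 ± 2.26.

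Of 18 genes of B cell receptor signalling, 16 were called higher in B cells and none in T cells (median log2 fold change 6.33), and Lcp1 and Nfatc1 were below the threshold of size. Syk, the kinase that binds the phosphorylated CD79 chains, was at 1349, 1453 and 1653 CPM in B cells and at 1.54, 4.83 and 10.9 in T cells (8.13 ± 0.54, 1.76e-07). Blnk, the adaptor that links SYK to phospholipase C, was at 148, 236 and 271 CPM in B cells and at 0, 0.207 and 0.576 in T cells, and Bank1, a scaffold, at 637, 704 and 804 against 0.418, 0.912 and 2.43. Rasgrp3, a Ras activator, was at 117, 134 and 155 CPM in B cells and at most 0.312 in T cells (10.52 ± 0.51, 1.45e-09). Fcgr2b, the inhibitory Fc receptor, was at 82.4, 91.2 and 99.6 CPM in B cells and at most 2.03 in T cells. Smaller changes were found for Cd72, an inhibitory lectin, at 117, 119 and 144 against 17.2, 21.4 and 22.5 CPM, and for Prkcb, at 374, 415 and 496 against 99.8, 121 and 145.

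T cells carried a parallel set. Of 30 genes of T cell receptor signalling, 21 were called higher in T cells and 2 in B cells (median log2 fold change -2.80). Themis, a regulator of signalling in thymocytes and T cells, was at 138, 149 and 171 CPM in T cells and at most 0.119 in B cells (-12.04 ± 0.30, 1.25e-15). Lat, the membrane adaptor, was at 227, 298 and 325 CPM against 0.521, 0.717 and 1.66. Sh2d1a (SAP), the adaptor of SLAM receptors, was at 21.4, 29.2 and 34.4 CPM in T cells and at most 0.0215 in B cells. The 2 genes of this list that were higher in B cells were Csk, the kinase that restrains Src family kinases, at 504, 574 and 639 against 196, 217 and 234 CPM, and Bcl10, a link to NF-kappa B, at 57.1, 70.3 and 92.1 against 30.9, 33.3 and 37.4. The partner of Bcl10, Malt1, at 202, 241 and 263 against 94.2, 121 and 136 CPM, did not reach the threshold of size (1.00 ± 0.10, 1.87e-07), and passed it without B cell library 41 or 47 or T cell library 53, 56 or 62.

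Where a lineage used its own member of a gene family, levels were compared per length, as CPM per kilobase of exon (RPKM). Syk and Zap70 changed places: Syk was at 157 RPKM in B cells and 0.560 in T cells, and Zap70 at 0.388 and 46.5. Btk was at 51.1 RPKM in B cells and 0.168 in T cells. For the SLP adaptors, Blnk was at 36.8 and 0.0432 RPKM and Lcp2 at 0.211 and 39.2. Lat2 was at 29.4 and 0.543 RPKM and Lat at 0.341 and 102. Other pairs were less complete. Fyn kept 9.81 RPKM in B cells beside 62.5 in T cells, whereas Blk was at 118 and 0.941. Plcg1 kept 4.57 RPKM in B cells beside 34.3 in T cells, whereas Plcg2 was at 137 and 1.59. Rasgrp1 was at 27.2 RPKM in B cells and 56.0 in T cells, so that in B cells it was about level with Rasgrp3 at 23.4, and its call was lost without the T cell libraries 53, 56 and 59 (log2 fold change -0.99). Prkcb kept 16.0 RPKM in T cells beside 56.0 in B cells, whereas Prkcq was at 0.199 in B cells and 56.1 in T cells. Vav1 was at 63.9 RPKM in B cells and 51.6 in T cells and was not called (0.31 ± 0.11, adjusted p 0.0395), whereas Vav2 was at 22.7 and 1.06. The NFAT genes Nfatc1 (0.60 ± 0.11) and Nfatc2 (-0.91 ± 0.18) were below the threshold of size, which Nfatc2 passed without B cell library 47 (-1.01).

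**Figure D2:**
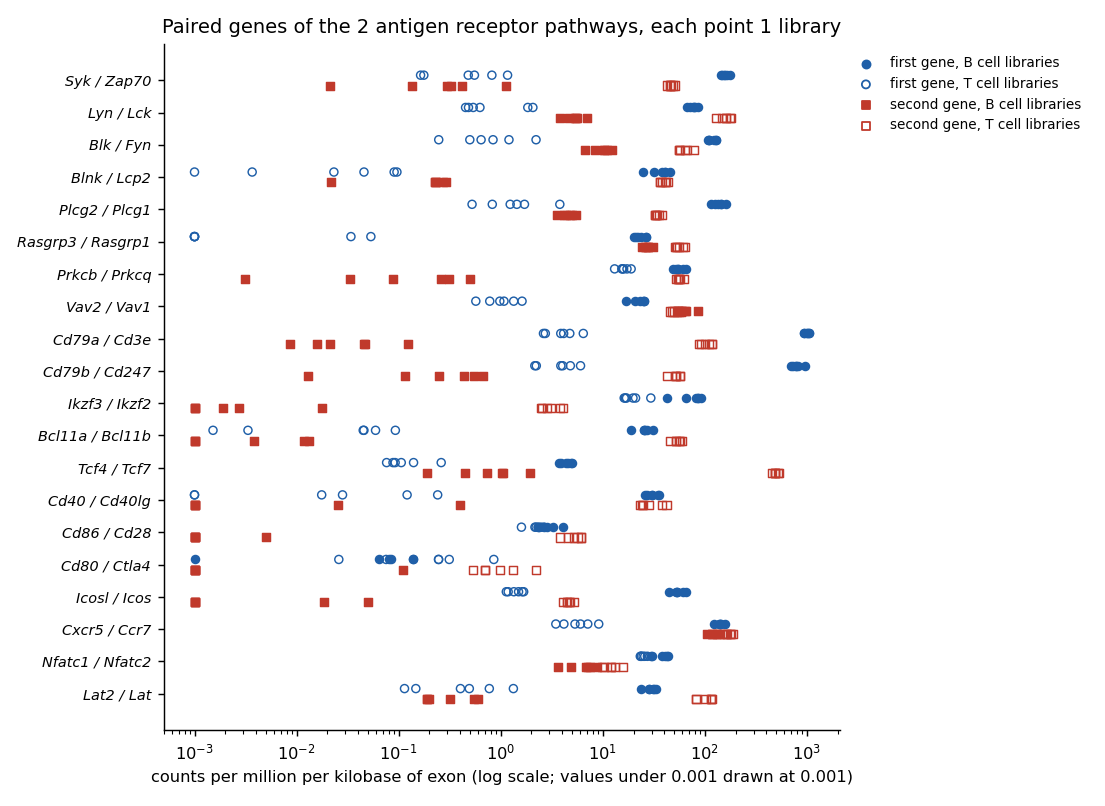
Each point is 1 CON library, with the level of the gene in CPM per kilobase of exon on a log axis, for paired genes of the 2 receptor pathways. Syk and Zap70 and likewise Blnk and Lcp2 sit at opposite ends in the 2 cell types, whereas Vav1 and Rasgrp1 are present in both.

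Of 22 B cell surface molecules, 17 were called higher in B cells and 1 in T cells (median log2 fold change 5.70). Cd40, which receives help from T cells, was at 88.3, 103 and 121 CPM in B cells and at 0, 0.0778 and 0.821 in T cells (8.66 ± 0.62, 2.19e-07), and its ligand Cd40lg was at 28.8, 33.3 and 52.6 CPM in T cells and at most 0.498 in B cells (-8.51 ± 0.71, 4.33e-07). Icosl and its receptor Icos were placed the same way, with Icosl at 204, 248 and 299 CPM in B cells and Icos at 14.0, 15.6 and 18.0 in T cells. Fcer2a (CD23), a marker of mature follicular B cells, was at 570.4, 745 and 855 CPM in B cells and at most 3.84 in T cells, and Ly6d was at 255, 337 and 373 against at most 0.592. Tnfrsf13c, the BAFF receptor that B cells need to survive, was at 134, 193 and 275 CPM in B cells and at most 3.75 in T cells. Cd86 (0.39 ± 0.21, adjusted p 0.17) and Cd80, which activated antigen-presenting cells raise, were low in both cell types, at no more than 14.9 and 3.17 CPM in any library. Spn (CD43) was the gene of this list that was higher in T cells, at 626, 768 and 859 CPM against 34.2, 49.6 and 57.5.

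Genes of immature B cells and of plasma cells went both ways. Of 11 genes of immature and recombining B cells, 7 were tested: Vpreb3, Cd93 and Sox4 were called higher in B cells, and Il7r, Dntt and Myb higher in T cells. Cd93, a marker of B cells that recently left the bone marrow, was at 14.6, 23.2 and 25.6 CPM in B cells and at most 3.83 in T cells. Sox4 was at 5.67, 9.92 and 20.4 CPM in B cells and at 2.86, 3.21 and 10.3 in T cells, with overlapping groups, and lost its call without B cell library 50 (0.95). Dntt, the polymerase that adds bases at receptor joints, was at 2.46, 5.83 and 7.12 CPM in T cells and at most 0.747 in B cells. Of 14 genes of activated B and plasma cells, 10 were tested, and 5 were called higher in B cells and 2 in T cells. Mzb1, an endoplasmic reticulum protein of antibody-making cells, was at 72.2, 77.7 and 121 CPM in B cells and at most 0.0782 in T cells. Prdm1 (Blimp-1) was at 7.21, 9.41 and 14.4 CPM in T cells and at 0.0311, 0.540 and 2.62 in B cells, so the plasma cell factor was higher in the T cell libraries.

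The MHC class II genes were among the most abundant of the B cell programme. Of 17 listed genes 16 were tested, and 14 were called higher in B cells and none in T cells (median log2 fold change 6.93). Cd74, the invariant chain, had the highest level of any called gene, at 7965, 9345 and 10289 CPM in B cells and at 6.02, 16.7 and 43.9 in T cells (8.74 ± 0.63, 3.51e-07). H2-Ab1 was at 3133, 3622 and 4017 CPM in B cells and at 0.768, 5.15 and 22.0 in T cells, and H2-Aa at 2207, 2429 and 2748 against 0.617, 2.96 and 12.5. The 3 T cell libraries with the highest Lyz2, 53, 56 and 59, also had the highest Cd74 (24.1, 43.9 and 36.4 CPM against 6.02 to 9.33) and H2-Ab1 (8.14, 11.5 and 22.0 against 0.768 to 2.17), and the part of the monocyte markers in these levels was not tested. Ciita, the master coactivator of the class II genes, was at 413, 531 and 640.3 CPM in B cells and at 0.0398, 1.85 and 3.67 in T cells (8.20 ± 0.74, 3.37e-06). The peptide editors H2-DMb2 and H2-Ob were at 510.3, 636 and 690.3 and at 651, 667 and 672 CPM in B cells, and H2-Ob kept 25.6, 28.7 and 40.5 in T cells. Of the factors that bind the class II promoters, Rfx5 was called higher in B cells (1.57 ± 0.16, 1.89e-07), and Rfxank (0.13 ± 0.13) and Rfxap (-0.25 ± 0.27) were present in both cell types and not called. MHC class II genes took 1.90% ± 0.310 (SD, n = 6) of all counts in B cells and 0.0314% ± 0.00783 in T cells (two-sided p = 0.00216 by exact permutation of the libraries, as small as 6 against 6 can give, and 0.00649 adjusted over 9 gene classes).

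The promoters of the class II genes share a conserved module, in which the Y box binds the trimeric factor NF-Y. The letters TGATTGG, on either strand, were searched in the 250 bases before each gene start (RefSeq, GRCm38.p6). They were found in 8.38% of 27025 genes and in 8 of 12 class II genes with an entry (66.7%): H2-Aa, H2-DMb1, H2-DMb2, H2-Eb1, H2-Eb2, H2-Oa, H2-Ob and Rfx5. The share was 11.0% among protein-coding genes called higher in B cells, 8.71% among those called higher in T cells and 11.9% among those not called. The windows below run from 55 bases before the motif to 20 bases after it, 5′ to 3′ on the strand of the gene, with the Y box in capitals, and are shown because these genes moved together. They lie at chr17:34287847-34287928 (H2-Aa, minus strand), chr17:34305751-34305832 (H2-Eb1, plus), chr17:34153073-34153154 (H2-DMb1, plus) and chr17:34238791-34238872 (H2-Ob, plus), and the motif begins 50, 61, 63 and 59 bases before the gene start.
H2-Aa: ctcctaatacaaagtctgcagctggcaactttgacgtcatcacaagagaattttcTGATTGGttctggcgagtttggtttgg
H2-Eb1: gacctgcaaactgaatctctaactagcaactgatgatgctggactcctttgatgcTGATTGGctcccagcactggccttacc
H2-DMb1: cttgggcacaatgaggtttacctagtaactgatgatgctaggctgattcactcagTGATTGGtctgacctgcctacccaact
H2-Ob: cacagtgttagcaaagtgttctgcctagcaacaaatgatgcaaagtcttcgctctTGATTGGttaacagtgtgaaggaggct
A match describes the letters in the window, not a bound site.

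Of 20 B lineage transcription factors, 19 were tested and 17 were called higher in B cells (median log2 fold change 5.08). Ebf1 was at 213, 286 and 303 CPM in B cells and at 0, 0.0514 and 0.361 in T cells (11.57 ± 0.44, 3.8e-11). Pax5 was at 462, 863 and 958 CPM in B cells and at 0.129, 0.587 and 1.45 in T cells (10.30 ± 0.44, 6.27e-10), and Spib, an Ets factor of B cells, at 376, 453 and 553 against at most 0.566. Bcl11a, Mef2c and Irf8 were also many times higher in B cells, with medians of 338, 470.3 and 398 CPM against 0.597, 0.672 and 5.61. Others were shared in part. Ikzf3 (Aiolos) was at 373, 727 and 802 CPM in B cells and at 142, 161 and 258 in T cells (1.91 ± 0.18, 2.19e-07), and Bach2 at 185, 279 and 321 against 93.7, 106 and 119. Foxo1 (-0.34 ± 0.12, adjusted p 0.039) and Zbtb20 (-0.54 ± 0.20, 0.0412) were below the threshold of size. Spi1 (PU.1), which monocytes also express, was at 74.8, 86.1 and 112 CPM in B cells and at 0.0597, 0.993 and 7.35 in T cells, where the highest levels were again in the libraries 53, 56 and 59.

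Of 21 T lineage transcription factors, 13 were called higher in T cells and 1 in B cells (median log2 fold change -3.79), with 2 in B cells without B cell library 38 or T cell library 62. Tcf7 was the most abundant called gene of the T cell programme, at 1204, 1276 and 1399.7 CPM in T cells and at 0.498, 2.31 and 5.09 in B cells (-9.12 ± 0.48, 1.25e-08). Its relative Lef1 was at 553, 636 and 741 CPM in T cells and at 5.70, 10.3 and 11.1 in B cells (-6.08 ± 0.16, 3.23e-15). Gata3, the factor of T helper type 2 cells and of the T lineage, was at 52.6, 60.7 and 68.9 CPM in T cells and at most 1.03 in B cells, and Tox at 37.5, 41.1 and 55.6 against at most 0.119. Satb1, a chromatin organiser, was lower by less, at 183, 216 and 226 CPM in B cells and 630.3, 733 and 784 in T cells (-1.79 ± 0.09, 1.17e-11). Factors of T cell subsets were low but clear of B cells: Foxp3, of regulatory T cells, at 17.2, 24.0 and 39.1 CPM, and Tbx21, of T helper type 1 and killer cells, at 12.4, 12.8 and 37.8. Id3, an inhibitor of E proteins, was the member that was higher in B cells, at 41.3, 50.8 and 64.7 CPM against 7.41, 8.60 and 12.1 (2.49 ± 0.16, 4.07e-10), whereas its relative Id2 was higher in T cells, at 47.0, 57.0 and 73.0 against at most 4.79. Ets1 was at almost the same level in both, 1201, 1294 and 1332 CPM in B cells and 1223, 1278 and 1348 in T cells (-0.01 ± 0.08, adjusted p 0.943).

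**Figure D3:**
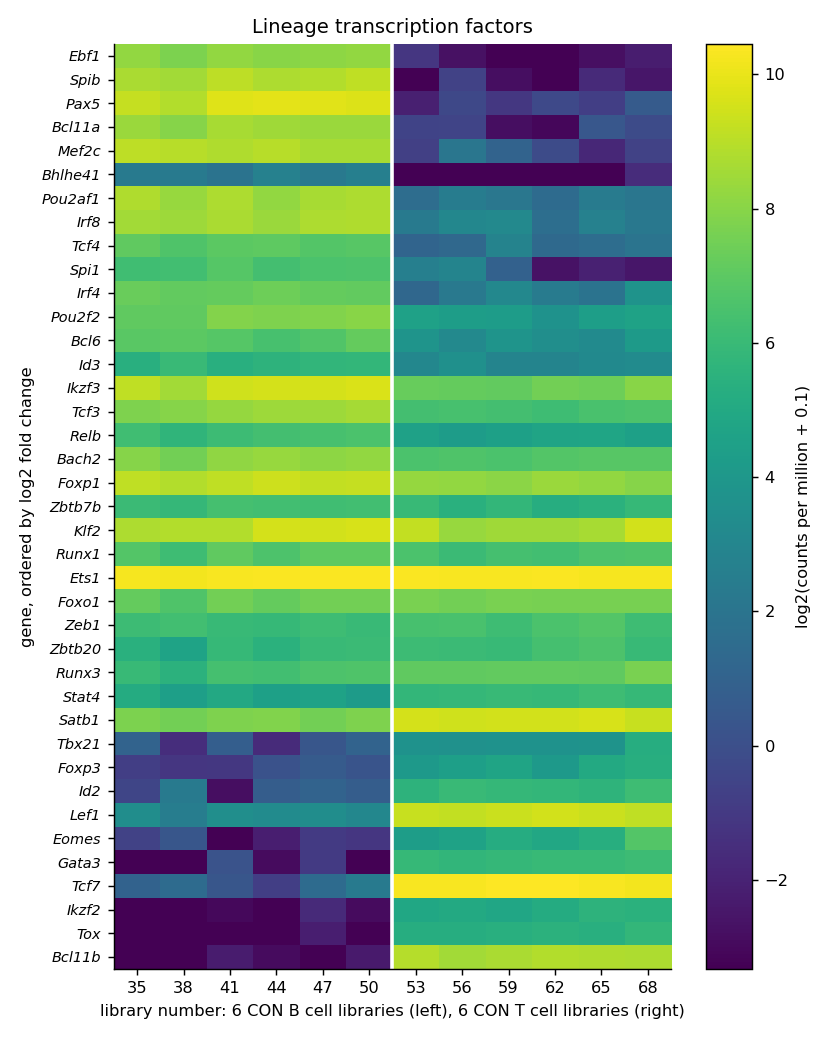
Heat map of B and T lineage transcription factors, with 1 row per gene, ordered by log2 fold change, and 1 column per CON library (6 B cell libraries left, 6 T cell libraries right), coloured by log2(CPM + 0.1). Ebf1, Pax5 and Spib are dark in every T cell library and Bcl11b and Tox in every B cell library, whereas Ets1 has about the same colour throughout.

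Of 16 genes of the T cell receptor complex and its co-receptors, 15 were called higher in T cells (median log2 fold change -9.40). Cd3d, Cd3g and Cd247 had medians of 199, 513 and 277 CPM in T cells against 1.07, 0.259 and 1.83 in B cells. The co-receptors were at 254, 288 and 358 CPM for Cd4, at 376, 445 and 492 for Cd8a and at 495, 524 and 638 for Cd8b1 in T cells, and at no more than 1.38 in any B cell library. Cd4 took 34.0% to 44.2% of the counts of Cd4 and Cd8a together (median 41.2%, n = 6). This is a share of RNA counts, without correction for gene length, and not a share of cells. Cd28, the costimulatory receptor, was at 23.3, 33.1 and 37.6 CPM in T cells and at most 0.0311 in B cells (-12.00 ± 0.38, 2.11e-14). Cd2, an adhesion molecule, was the exception, at 269, 325 and 439.5 CPM in B cells and 305, 347 and 372 in T cells (-0.05 ± 0.11, adjusted p 0.763).

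Gamma delta receptor genes were a small part of the T cell libraries. Trdc took 1.70% to 4.14% of the counts of Trac and Trdc together (median 3.12%), and the gamma constant genes 1.40% to 2.27% of all T cell receptor constant counts (median 1.79%). Among beta chain constant genes, Trbc1 took 41.4% to 47.8% of the counts of Trbc1 and Trbc2, which are nearly identical in sequence, so that this split is uncertain. Trbv3, at 24.9, 39.4 and 48.9 CPM, took a median of 18.1% of beta variable counts, Trbv15 10.4% and Trbv13-2 7.16%, and the 10 highest of 22 segments took 78.3%. The alpha repertoire was spread over more segments, with 104 of 108 Trav segments counted and a median of 32.5% in the 10 highest. In the B cell libraries together, 9 counts fell in Trbv and 5 in Trav segments, and in the T cell libraries 299 fell in Ighv and 162 in Igkv segments.

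Genes of naive T cells led the list of T cell states. Of 21 genes of naive, memory and regulatory T cells that were tested, 17 were called higher in T cells and none in B cells (median log2 fold change -5.85). Igfbp4, an insulin-like growth factor binding protein of naive T cells, was at 407, 478 and 488 CPM in T cells and at 0, 0.136 and 0.192 in B cells (-11.85 ± 0.24, 2.9e-16), and Actn1 was at 322, 369.9 and 391 against 1.90, 5.54 and 6.94. Il7r, the receptor for the survival cytokine IL-7, was at 379, 434 and 504 CPM in T cells and at most 1.12 in B cells. Memory and regulatory markers were lower: Cxcr3 was at 17.6, 30.6 and 59.4 CPM, Il2ra at 11.9, 15.6 and 19.0 and Ctla4 at 1.24, 1.97 and 5.13. The recirculation genes Ccr7 (-0.47 ± 0.09, 0.00035) and S1pr1 (-0.78 ± 0.08, 4.02e-07) differed by less than the threshold of size, with higher levels in T cells.

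Of 15 cytotoxic and NK cell genes tested, 14 were called higher in T cells (median log2 fold change -5.27), and Tyrobp, an adaptor of NK and myeloid cells, was not (0.56 ± 0.28, adjusted p 0.14). Ccl5, a chemokine of memory and killer T cells, was at 36.2, 108 and 447 CPM in T cells and at 0.504, 1.55 and 3.87 in B cells (-6.40 ± 0.76, 3.49e-05). Nkg7, a granule protein, was at 50.0, 70.0 and 88.3 CPM in T cells and at most 0.768 in B cells (-7.01 ± 0.29, 6.38e-13), and Prf1 (perforin) at 38.3, 55.5 and 69.2 against at most 2.74. The granzymes were lower and more variable, with Gzma at 1.85, 9.23 and 27.1 CPM and Gzmb at 2.97, 5.06 and 24.9 in T cells, and Gzma overlapped the B cell range of 0.534 to 2.08. Killer lectin receptors followed, with 10 of 16 members tested called higher in T cells and none in B cells, among them Klrd1 at 43.9, 52.5 and 66.4 CPM. The 16 members summed to 3.07 to 13.1 CPM in B cells and to 87.2 to 173 in T cells. The 15 cytotoxic genes summed to 14.7 to 28.3 CPM in B cells. A gene this low in B cells could pass the filter on low counts only through T cells, so both counts are a description only. Some NK cells carry CD90, so a sort on it can include them. The 10 NK cell markers summed to 82.5 to 235 CPM in T cells and 4.05 to 10.6 in B cells. Of these markers, 6 of the 10 were called higher in T cells. The defining receptor gene Ncr1 was at 0.695, 3.52 and 8.60 CPM in T cells. In B cells Ncr1 was at 1.26 CPM in library 35 and at 0.0695 to 0.452 in the others. Its level was thus above 0 in every library of both types, and the groups overlapped. What part of the cytotoxic genes NK cells carried was not tested.

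A short RUNX motif was searched in the same way, and here too a match describes the letters, not a bound site. The letters TGTGGT, on either strand, occurred in the 250 bases before the start of 15.9% of all genes. Among protein-coding genes the share was 11.8% for those called higher in B cells, 15.1% for T cells and 13.2% for those not called. The motif lay before 8 of 12 cytotoxic genes with an entry (66.7%): Gzma, Gzmb, Klrb1c, Klre1, Klrk1, Ncr1, Nkg7 and Prf1. Windows are printed for the 3 of these with the best known killing function, on the strand of the gene, with the motif or its reverse complement in capitals. They lie at chr14:56262402-56262482 (Gzmb, minus strand), chr13:113101006-113101086 (Gzma, minus) and chr10:61297651-61297731 (Prf1, plus), with the motif 93, 50 and 130 bases before the start.
Gzmb: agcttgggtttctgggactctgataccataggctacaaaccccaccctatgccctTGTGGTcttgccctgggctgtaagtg
Gzma: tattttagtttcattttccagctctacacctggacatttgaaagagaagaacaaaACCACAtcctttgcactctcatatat
Prf1: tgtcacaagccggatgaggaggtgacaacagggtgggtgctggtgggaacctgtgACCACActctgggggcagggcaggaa
For comparison, the octamer ATGCAAAT, the letters bound by the POU factors Pou2f1 and Pou2f2, was found in 1.81% of all genes, 2.91% of protein-coding genes called higher in B cells, 1.4% of those called higher in T cells and 1.28% of those not called. Motifs were tabulated for the class II, Toll-like receptor, cytotoxic, receptor signalling and transcription factor lists only. In these lists the octamer lay before Blnk, Prkcb and Tlr9, each called higher in B cells. It also lay before Mef2b, which had too few counts to be tested. Ccr6 and Vpreb3, also called higher in B cells, were looked up by choice and had it too, and the remaining lists were not tabulated. The window of Tlr9 (chr9:106222471-106222553, plus strand), with the motif 72 bases before the start, is shown as an example.
Tlr9: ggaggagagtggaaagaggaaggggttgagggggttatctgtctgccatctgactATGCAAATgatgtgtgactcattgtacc
The letters CTTTGAT of TCF and LEF factors and GAGGAAGT of PU.1 gave shares of 2.29% and 3.43% before genes called higher in B cells and 2.9% and 3.7% before genes called higher in T cells, against 3.72% and 2.79% of all genes. Among protein-coding genes that were tested and not called, the shares were 2.73% and 2.92%.

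The lineages also differed in the signals they could receive. Of 26 cytokine receptor genes tested, 11 were called higher in T cells and 5 in B cells (median log2 fold change -0.40). Il6st (gp130) was at 319, 406 and 435 CPM in T cells and at 16.0, 18.2 and 21.7 in B cells (-4.41 ± 0.12, 3.24e-15), and Il6ra at 208, 227 and 234 against 25.3, 33.4 and 36.6. Il2rb, Il18r1 and Tnfrsf1a had medians of 239.7, 103 and 27.5 CPM in T cells and of 1.70, 0.107 and 0.205 in B cells. B cells had more Il10ra, at 203, 269.7 and 289 CPM against 39.1, 48.2 and 72.4 (2.33 ± 0.15, 4.31e-10), and more Il5ra, at 22.6, 27.5 and 30.7 against at most 0.456. The interferon gamma receptor chains went opposite ways, with Ifngr1 at 76.4, 85.1 and 103 CPM in B cells and 181, 193 and 204 in T cells, and Ifngr2 at 66.1, 75.6 and 88.5 in B cells and 26.2, 30.6 and 33.1 in T cells. The type I interferon receptor genes Ifnar1 (-0.14 ± 0.11, adjusted p 0.377) and Ifnar2 (-0.09 ± 0.16, 0.718) were not called.

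The tumour necrosis factor receptors, which carry survival, death and costimulatory signals, were divided between the lineages. Of 19 tested, 5 were called higher in B cells and 11 in T cells (median log2 fold change -1.70), beside 20.5% of all genes called in either direction. Tnfrsf13b (TACI), a receptor for BAFF and APRIL, was at 207, 242 and 261 CPM in B cells and at 10.4, 15.8 and 23.8 in T cells (3.85 ± 0.18, 4.19e-12). Cd27, a costimulatory receptor of naive T cells, was at 124, 138 and 159 CPM in T cells and at 0.313, 3.75 and 7.17 in B cells (-5.22 ± 0.48, 2.51e-06). Tnfrsf25 (DR3) was at 12.5, 16.2 and 20.0 CPM in T cells and at most 0.0311 in B cells, and Tnfrsf18 (GITR) at 15.4, 20.0 and 23.5 against 3.83, 5.81 and 7.38. Tnfrsf12a and Tnfrsf19 passed narrowly (adjusted p 0.0442 and 0.0497), and 3 members in place of 5 were higher in B cells without B cell library 38, 44 or 47 or T cell library 53, 56, 65 or 68. Of 9 ligands tested, 5 were called higher in T cells and 1 in B cells, or 2 in B cells without B cell library 44 or T cell library 59 or 68. Lta, lymphotoxin alpha, was at 13.4, 15.4 and 20.7 CPM in B cells and at 2.63, 4.81 and 6.84 in T cells (1.73 ± 0.23, 7.04e-06), and its partner Ltb had the higher levels in B cells below the threshold of size (0.81 ± 0.13). Fasl, the ligand of FAS, had no count in B cells and a mean of 6.78 ± 2.98 CPM (SD, n = 6) in T cells. The Fc receptor-like genes Fcrl1, Fcrl5 and Fcrla were all called higher in B cells, with medians of 196, 5.89 and 263 CPM against 0.955, 0 and 0.0240.

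Of 21 chemokine and lipid receptors tested, 5 were called higher in B cells (3 without B cell library 50) and 9 in T cells. Cxcr5, which leads cells into B cell follicles, was at 408, 468 and 519.9 CPM in B cells and at 11.5, 19.0 and 30.4 in T cells (4.58 ± 0.20, 6.7e-12), and Ccr6 at 67.2, 70.8 and 86.7 against 0.757, 2.40 and 7.04. Cxcr4 was higher in B cells by less, at 120.3, 161 and 225 against 48.9, 59.0 and 80.3 CPM. In T cells Ccr9, the gut homing receptor, was at 34.9, 57.9 and 85.7 CPM and Cxcr6 at 34.7, 38.3 and 47.3, against at most 6.53 and 5.79 in B cells. Ccr2 and Cx3cr1, which monocytes also express, were at 6.95, 21.3 and 38.9 and at 1.99, 5.68 and 29.7 CPM in T cells. Of 20 integrin and selectin genes, 12 were called higher in T cells and 1 in B cells (median log2 fold change -1.69). The beta chains Itgb1, Itgb2 and Itgb3 were all higher in T cells, with medians of 197, 424 and 109.5 CPM against 38.0, 142 and 35.8, and Selplg, the ligand of P-selectin, was at 509.7, 537 and 626 against 73.8, 85.9 and 103. Icam2 was the member higher in B cells, at 81.2, 91.2 and 94.7 CPM against 31.6, 46.2 and 49.1 (1.07 ± 0.12, 7.77e-07), a call that was lost without T cell library 65.

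Of 16 Toll-like receptor genes and partners tested, 7 were called higher in B cells and 1 in T cells. Tlr9, the receptor for unmethylated DNA, was at 95.7, 134 and 159.8 CPM in B cells and at 0.0365, 0.490 and 2.60 in T cells (7.14 ± 0.81, 2.37e-05). Unc93b1, which carries the nucleic acid receptors to endosomes, was at 523, 628 and 716 CPM in B cells and at 5.65, 9.84 and 15.3 in T cells, and Cd180 and Ly86, which form a receptor complex of B cells, had medians of 119 and 123 against 0.594 and 0.329. Tlr12 was the member higher in T cells, at 18.6, 21.2 and 26.6 CPM against 3.58, 5.02 and 6.32 (-2.15 ± 0.19, 2.51e-08). The shared adaptor Myd88 (-0.04 ± 0.14, adjusted p 0.876) and the kinases Irak1 and Irak4 were not called.

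Of 19 immediate early genes tested, 11 were called higher in B cells and 1 in T cells, against 9.85% and 10.6% of all genes. Zfp36, which destabilises cytokine mRNAs, was at 231, 261 and 304 CPM in B cells and at 60.1, 64.9 and 74.6 in T cells (2.01 ± 0.10, 7.78e-12). Fos was at 22.3, 26.0 and 34.4 CPM against 2.03, 4.43 and 8.54, Jun at 32.2, 47.3 and 67.5 against 9.57, 13.3 and 20.4, and Egr3 at 24.6, 36.1 and 50.0 against 0.960, 3.21 and 4.60. Nr4a3 was the member higher in T cells, at 1.75, 6.19 and 7.94 CPM against 0.129, 1.31 and 1.91, and without B cell library 44 the list had 2 such members. Cd69 (0.36 ± 0.21, adjusted p 0.229) was not called.

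Survival genes were split. Of 22 tested, 4 were called higher in each lineage, against 9.85% of all genes in B cells and 10.6% in T cells. Bcl2 was at 116, 165 and 226 CPM in T cells and at 36.5, 56.5 and 63.3 in B cells (-1.61 ± 0.16, 1.33e-07), while Mcl1, another protector of the same family, had the higher levels in B cells at 576, 705 and 835 against 295, 353 and 463, just below the threshold of size (0.94 ± 0.12, 2.32e-06), which it passed without T cell library 53 (1.01). The BH3-only genes Bbc3 (Puma) and Bmf went opposite ways, Bbc3 at 9.70, 16.1 and 20.6 CPM in T cells against at most 3.86 in B cells, and Bmf at 59.1, 73.4 and 83.9 in B cells against 2.28, 4.80 and 8.52 in T cells. Fas, the death receptor, was at 13.2, 15.2 and 20.6 CPM in T cells and at most 2.74 in B cells. Tnfsf8, the ligand of CD30, was at 32.4, 61.2 and 76.1 CPM in T cells and at most 0.142 in B cells.

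For the lists that follow, the shares over all genes were 10.6% called higher in T cells and 9.85% in B cells. Of 21 genes of the type I interferon response, 8 were called higher in T cells and 2 in B cells. Ifit1 was at 9.87, 19.6 and 22.3 CPM in T cells and at 0.498, 2.48 and 3.11 in B cells (-3.04 ± 0.36, 1.4e-06), and Oas3 at 28.4, 34.1 and 50.7 against 2.89, 9.70 and 10.1. Oasl1 and Stat2 went the other way, Stat2 at 59.0, 82.5 and 96.8 CPM in B cells and 28.7, 31.1 and 41.2 in T cells. Isg15 and Rsad2 were not called and overlapped fully. Of 21 glycolysis genes, 3 were called higher in T cells (Ldhb, Pfkm and Pfkp) and 2 in B cells (Aldoc and Tpi1, of which Tpi1 lost its call without B cell library 38, at 0.92), while Pkm, Gpi1, Pgk1 and Gapdh were not called. Calls were about as common among glycolysis genes as over all genes tested, of which 20.5% were called. Ldhb, the heart-type lactate dehydrogenase subunit, was at 2.11, 10.5 and 13.5 CPM in T cells and at most 0.297 in B cells, and Ldha was at 153, 189.7 and 226 in T cells and 81.1, 106 and 118 in B cells (-0.89 ± 0.12, 5.58e-06). Of 19 proliferation genes tested, 5 were called higher in T cells and 2 in B cells, and 3 were higher in T cells without B cell library 47 or T cell library 59, 65 or 68. Mki67 was at 20.0, 25.3 and 43.5 CPM in T cells and at 0.807, 4.47 and 7.28 in B cells (-2.68 ± 0.36, 1.11e-05) and Top2a at 11.9, 13.0 and 21.9 against 2.55, 3.62 and 7.41, while Mcm2, Mcm3 and Pcna had nearly equal levels. Of 52 replication-dependent histone genes tested, 9 were called higher in B cells and 1 in T cells (Hist1h3c), which lost its call without B cell library 35 or 44 or T cell library 59 or 68. Taken in both directions, calls among histone genes were about as common as the 20.5% over all genes.

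**Figure D4:**
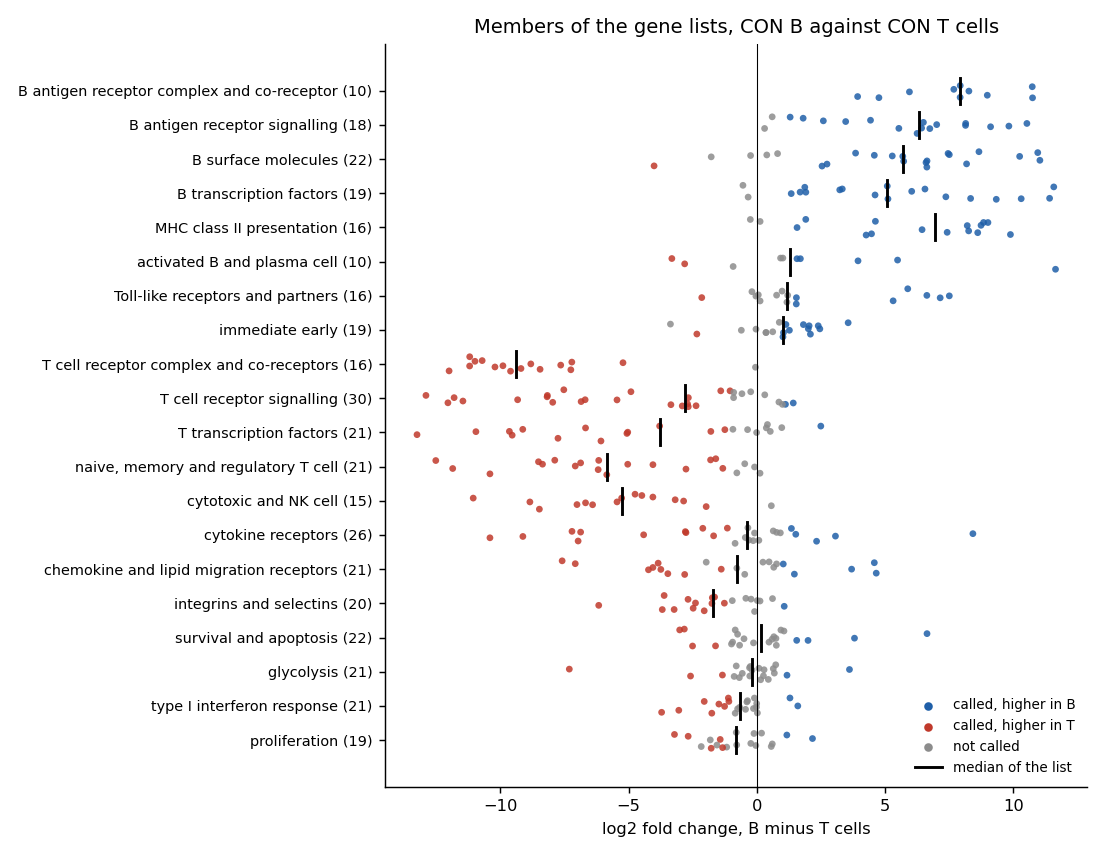
Log2 fold changes (B minus T) of the tested members of each gene list, 1 point per gene, with the median of the list as a bar. Receptor, signalling and MHC class II lists sit far from 0 (medians of 7.92 and 6.93 for the B cell receptor complex and class II genes, -9.40 for the T cell receptor complex), whereas survival, glycolysis and interferon genes spread around 0.

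Members of single gene clusters went different ways. Of 8 Ms4a genes tested, Ms4a1 and Ms4a4c were called higher in B cells, and Ms4a4b, Ms4a6b and Ms4a6d in T cells. Ms4a4b was at 379, 405 and 469 CPM in T cells and at 0.104, 0.789 and 1.33 in B cells (-9.06 ± 0.32, 6.7e-12), and Ms4a6b at 435, 456 and 499 against 7.57, 14.0 and 19.3. Of the 8 Gimap genes, GTPases that support lymphocyte survival, Gimap1 was called higher in B cells, at 206, 251 and 352 CPM against 88.8, 123 and 152, and Gimap3 and Gimap4 in T cells, at 532, 604 and 647 against 219, 313 and 334, and at 406, 438 and 542 against 167, 208 and 298. The other 5 were present in both lineages and not called. These calls lay close to the threshold of size: 1 Gimap gene was called higher in T cells without B cell library 38, 41 or 47 or T cell library 53, 62 or 68, none without B cell library 44, and 2 were called higher in B cells without B cell library 44 or T cell library 68. Among MHC class I genes, H2-K1 (-0.53 ± 0.10, 0.00018) and H2-D1 (0.06 ± 0.10, 0.672) were not called, and H2-Q7 was called higher in T cells, at 312, 369 and 436 CPM against 82.0, 86.9 and 113. H2-Q genes are close copies of each other, so their split is uncertain.

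Few genes of basic cell functions were called. None of 82 cytosolic ribosomal protein genes was called by edgeR or by DESeq2, 19 had an unadjusted p under 0.05 in edgeR, and the median of their log2 fold changes was -0.12. Of 77 oxidative phosphorylation subunits, Ndufb4 and Ndufs8 were called higher in B cells and Ndufb2 in T cells (median log2 fold change 0.12), and 1 was called higher in B cells without B cell library 38 or 41 or T cell library 59 and none in T cells without B cell library 35 or 38 or T cell library 59 or 68. None of 16 mitochondrially encoded genes tested was called by edgeR or DESeq2, and 0 had an unadjusted p under 0.05. Mitochondrial genes took 10.2% ± 4.71 of all counts in B cells and 11.8% ± 1.63 in T cells (SD, n = 6, exact permutation test, two-sided, p = 0.472). Gm23935 and Gm26917, which hold ribosomal RNA sequence, took 24.5% ± 10.4 and 17.7% ± 10.0 (exact permutation p = 0.275). Ribosomal protein genes took 3.89% ± 0.673 of counts in B cells and 5.31% ± 1.24 in T cells (exact permutation p = 0.0238, adjusted 0.0536). Immunoglobulin genes took 0.917% of counts in B cells and 0.0255% in T cells, and T cell receptor genes 0.000105% and 0.140% (exact permutation p = 0.00216 for each, adjusted 0.00649).

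Several genes of the B cell programme were shared with blood monocytes, and others were not. On CPM normalized over all 22 CON libraries (mean ± SD), Syk was at 1565 ± 120 in B cells, 781 ± 88.2 in Ly6C-high and 571 ± 45.0 in Ly6C-low monocytes and 5.66 ± 3.95 in T cells. Lyn was higher in monocytes than in B cells, at 713 ± 42.3 and 588 ± 35.5 against 332 ± 32.6, and Plcg2 was about level, at 711 ± 61.3 and 629.8 ± 67.9 against 624.8 ± 68.7. Pax5, Ebf1 and Blnk, in contrast, had means of at most 2.79 in both monocyte groups. Cd74 was at 504 ± 67.7 in Ly6C-high and 1786 ± 651 in Ly6C-low monocytes against 9759 ± 868 in B cells. Lyz2, at 15541 ± 1201 and 3701 ± 396 in the monocyte groups, was at 54.1 ± 63.8 in T cells and 27.6 ± 7.11 in B cells. These levels are described without a test, since monocytes entered no comparison here.

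The comparison was repeated in the SUS libraries, which come from other mice. Of 16667 genes tested, 1550 (9.3%) were called higher in B cells and 1742 (10.5%) in T cells. Of the genes called in CON mice, 1322 of 1651 (80.1%) and 1395 of 1783 (78.2%) were called the same way in SUS mice, which is 85.3% and 80.1% of the SUS calls. The sign was the same for 1599 of 1606 and 1705 of 1712 of the genes that were also tested in SUS mice. A single gene was called opposite ways, Hist1h1a, a linker histone that was picked after its values were seen: it was at 16.6 ± 10.6 CPM (SD) in B cells and 7.92 ± 3.65 in T cells of CON mice (log2 fold change 1.07), and had a log2 fold change of -1.07 in SUS mice, and the difference between them did not pass the adjusted threshold (-2.13 ± 0.54, adjusted p 0.332).

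**Figure D5:**
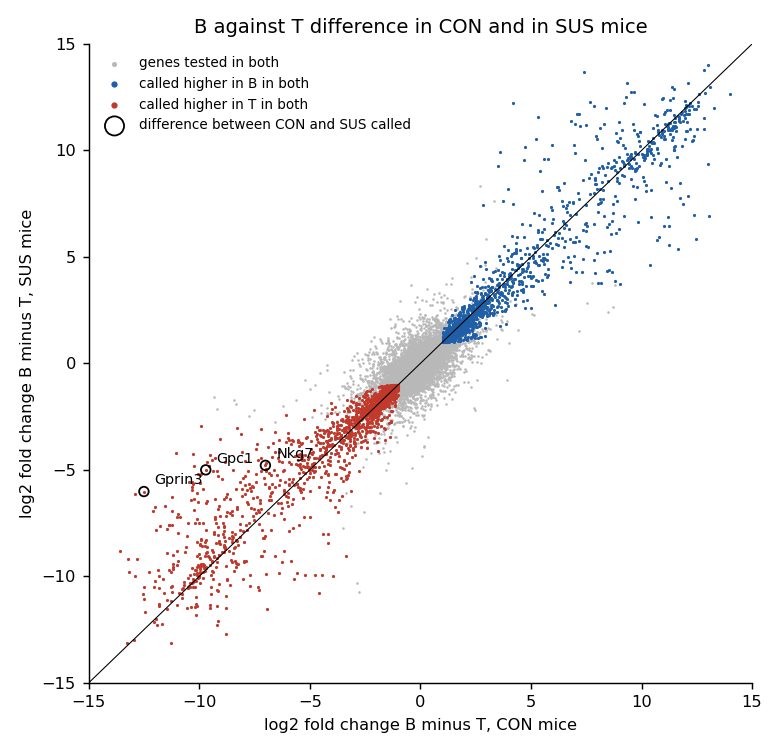
Log2 fold change (B minus T) in CON mice on the horizontal axis and in SUS mice on the vertical axis, 1 point per gene tested in both, with the line of equal change. The points lie along the line, and the 3 genes called for the difference between the 2 mouse groups are named.

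The test of the difference itself, SUS minus CON, called 3 of 19221 genes (0.0156%), all toward a smaller gap between T and B cells in SUS mice, and 917 genes had an unadjusted p under 0.05. Nkg7 went from 0.526 CPM in CON to 2.57 in SUS B cells, with 69.9 and 71.2 in T cells (2.23 ± 0.36, adjusted p 0.0155). All 6 SUS B cell libraries, at 1.42 to 4.23 CPM, were above all 6 CON B cell libraries, at 0.069 to 0.765. Other genes of killer cells moved with it in the B cell libraries. The 10 NK cell markers summed to 4.01, 5.70 and 10.5 CPM in CON and to 16.4, 20.7 and 43.6 in SUS B cells, with no overlap. Of these markers, 9 of the 10 had the higher mean in SUS B cells, as did all 15 cytotoxic and NK cell genes, which include Nkg7. Both lists hold Ncr1, Klrb1c, Klre1 and Gzma, so the counts are not separate. The share of all genes with a higher mean in SUS B cells was not set beside them. In T cells the NK cell markers summed to 82.4 to 235 CPM in CON and 69.0 to 163 in SUS mice. The T cell receptor complex genes without Cd2 summed to 3.18, 10.7 and 17.8 CPM in CON and to 10.5, 15.3 and 19.0 in SUS B cells, which overlapped, and 11 of 15 had the higher mean in SUS. The part of these markers in the 3 calls was not tested. Gprin3 (6.48 ± 1.05, 0.0201) and Gpc1 (4.71 ± 0.83, 0.0231) moved the same way, from means of 0.00514 and 0.0091 CPM in CON B cells to 0.605 and 0.277 in SUS B cells, against 45.9 and 38.9 and against 10.5 and 9.23 in T cells. Both had 0 in most CON B cell libraries, and Gprin3 had 0 in 1 SUS B cell library and Gpc1 in another, so these levels rest on few counts. DESeq2 called 47 genes, these 3 among them. None of 10756 genes with at least 10 counts in every library was called by edgeR, a setting that leaves the 3 genes out, and 337 of those had an unadjusted p under 0.05. Leaving out 1 library gave between 1 and 7 called genes: 7 without SUS B cell library 36, 5 without SUS B cell library 42, CON B cell library 38 or 50 or CON T cell library 53, 6 without CON T cell library 62, and 1 without CON B cell library 41 or 47.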

How the data were processed

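RNA of sorted blood lymphocytes was measured by total RNA sequencing (SMARTer Stranded Total RNA-Seq Kit, Pico input). The authors aligned the reads with HISAT2 to mm10 and counted them per Ensembl gene with HTSeq, and the deposited values are raw counts of reads for 52636 genes, with no normalization. Whether counting used the strand and how reads with several matches were handled is not given in the sources used here. Library numbers are those of the labels. R 4.3.3 with edgeR 4.0.16 was used: filterByExpr on low counts, TMM normalization, and a robust quasi-likelihood F test on the 12 CON libraries (B minus T), with Benjamini-Hochberg adjustment over all genes tested. The common biological coefficient of variation was 0.526. A second fit on the 24 CON and SUS libraries tested the difference between mouse groups, and DESeq2 1.42.0 was an alternative. A floor of 3 counts per library stood in where a group had no count, and it covers counting error only. On simulated counts for CON B against T cells, with 16165 genes tested, edgeR called 160 of 200 changed genes in the right direction and 2 unchanged genes. Shares of counts were compared by an exact permutation test over libraries, two-sided. Named genes were the markers, members of hand-made lists and pairs, the 10 protein-coding genes with the largest changes each way (mean of at least 50 counts, no overlap), the 5 called genes with the highest levels, 3 lincRNA or antisense genes each way, and every gene called for the SUS difference. The question, lists and rules were chosen with earlier results of these data known, so the lists are no independent evidence. Libraries labelled RES were not used, since the markers of 2 of them went against their labels. A few genes of the lists are counted in the list totals and not reported here by name.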

Additional observations from a re-analysis of the deposited data

Results flagged for a closer look

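Among 474 groups of 6 values tested (named genes with at least 50 counts in a library, and 9 gene classes), 49 had a library whose gap to the nearest of the others exceeded 0.625 of the range (Dixon's test). Chance flags about 1 in 20 groups. The flags fell most often on B cell libraries 38 and 50 and T cell libraries 56 and 68.

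In T cell library 68 the genes of killer and type 1 cells stood out. Ccl5 was at 447 CPM there against at most 152 in the other T cell libraries, Tbx21 at 37.8 against at most 13.3, Gzmb at 24.9 against at most 7.39 and Cx3cr1 at 29.7 against at most 7.70. Top2a was at 21.9 against at most 14.2, Ikzf3 at 258 against at most 183 and Cd80 at 3.17 against at most 1.16, whereas Lypd6b was lowest there, at 9.42 against at least 19.8. In T cell library 56, Siglecg was at 3.78 CPM against at most 0.508, Plcg2 at 16.3 against at most 7.34, H2-Ob at 40.5 against at most 29.7, Fcrla at 0.949 against at most 0.0720 and Igha at 0.985 against at most 0.133. The interferon-induced genes Isg15 and Rsad2 were at 5.77 and 21.7 there, against at most 2.61 and 13.7, and red cell markers took 0.343% of its counts against at most 0.166%. T cell library 53 had Ly86 at 2.83 against at most 0.511, Tpi1 at 9.87 against at least 13.2 and Cd48 at 40.4 against at least 52.5, and library 59 had Ndufb4 at 4.35 against at least 6.92. Library 62 had H2-Eb2 at 2.13 CPM against at most 0.313, Il1rl1 at 2.25 against at least 8.17, Irak4 at 30.5 against at most 27.2 and Pfkm at 16.6 against at most 9.69.

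B cell library 38, which had the fewest genes with a count, had Cd69 at 283 CPM against at most 162 in the other B cell libraries, Iglc2 at 499 against at most 312 and Mzb1 at 121 against at most 87.5. Ndufs8 and Tpi1 were at 66.9 and 55.9 there against at most 40.3 and 30.2, Klrk1 at 3.82 against at most 0.778, the platelet gene Itga2b at 21.5 against at most 12.8 and Ifnar1 at 94.0 against at least 121, and red cell markers took 0.530% of its counts against at most 0.285%. B cell library 50 had Igha at 39.2 CPM against at most 10.5, Myb at 12.8 against at most 6.38, Sox4 at 20.4 against at most 10.6 and Hist1h3c at 1.86 against at most 0.741. Vav1 was at 317 there against at most 240.3, and Lcp2 at 0.0960 against at least 1.01. In B cell library 41, Zap70 was at 3.38 CPM against at most 1.25, Thy1 at 1.46 against at most 0.521 and Utrn at 106 against at most 83.7. Library 44 had Diras2 at 28.6 against at most 18.5, Igkv1-117 at 45.8 against at least 69.8 and Oas3 at 2.89 against at least 9.16. Library 47 had Ccr6 at 86.7 against at most 74.3 and Cd93 at 14.6 against at least 21.5, and library 35 had Ncr1 at 1.26 against at most 0.452 and Slamf7 at 53.8 against at most 45.7.

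The difference between B and T cells itself differed between SUS and CON mice for Nkg7, Gprin3 and Gpc1, by 2.23, 6.48 and 4.71 on the log2 scale, as described above.

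The libraries labelled RES, which entered no comparison, held 2 in which the markers went against the label. The library labelled RES Bcells with number 52 had 4.91 CPM of Cd79a, 0.0968 of Ms4a1, 352 of Cd3e and 339.7 of Lck (CPM of total counts). The library labelled RES Tcells with number 70 had 1079 CPM of Cd79a, 374 of Ms4a1, 0.109 of Cd3e and 12.7 of Lck.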

How the results depend on the processing

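No gene called in CON mice was called in the opposite direction under any alternative. DESeq2 called 2082 genes higher in B cells and 2608 in T cells, and leaving out 1 library gave 1608 to 1769 and 1700 to 1971. The counts moved by more than 1.5 times where only genes with at least 10 counts in every library were tested (1001 and 893, with 149 in place of 253 genes of the hand-made lists called), and where the adjusted p alone made the call (3026 and 2906). The first of these settings removes genes that are absent from one lineage, which are the largest changes. The SUS minus CON difference gave 47 genes with DESeq2 and 0 with at least 10 counts in every library, against 3, and 1 to 7 when a library was left out. Without the T cell libraries 53, 56 and 59, Lyz2 went from -0.94 to 2.51 (adjusted p 4.46e-06) and Fn1, fibronectin, from -0.58 to 2.27 (0.00636), and these libraries held the highest Lyz2 of the T cell libraries.

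Of the shares of counts, ribosomal protein genes differed by -1.42 percentage points (B minus T). They passed the adjusted threshold at -1.24 when Gm23935 and Gm26917 left the denominator (adjusted exact permutation p = 0.0351) and without B cell library 35, 38 or 41 or T cell library 68, with differences from -1.78 to -1.11 over the libraries left out. Platelet markers passed at 0.00158 with that denominator and at 0.00194 over protein-coding counts, against 0.000968, and red cell markers, at 0.103, passed without T cell library 56 (0.138), with a range of 0.0515 to 0.138. The cause of these shifts was not tested.

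No paired analysis was possible because the labels name no mouse for a library, so that B and T cell libraries of the same animal cannot be matched. Thinning every library to the smallest total gave 1647 and 1767 calls, and genes below about 1 CPM rest on few counts.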

Other observations

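The SLAM family of receptors, which lymphocytes use to bind each other, was partly shared. Of 8 members tested, 3 were called higher in B cells and none in T cells. Slamf1 (CD150) was at 23.7, 34.6 and 45.5 CPM (lowest, median and highest library) in B cells and at 6.80, 13.0 and 15.6 in T cells (log2 fold change 1.44 ± 0.20, SE, edgeR adjusted p 1.19e-05). Slamf7 was at 41.7, 43.1 and 53.8 against 4.82, 14.1 and 34.2, and Slamf9 had a median of 3.14 against at most 0.355. Slamf6, at 68.5, 75.8 and 92.7 CPM in B cells and 126, 156 and 167 in T cells, and Cd84 had higher levels in T cells in all libraries without reaching the threshold of size (-0.93 ± 0.11, 9.05e-07, and -0.60 ± 0.10, 9.67e-05). Ly9 and Cd48 overlapped between the cell types.

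The marker lists of dendritic cells were mixed. Of 5 conventional dendritic cell markers tested, 2 were called higher in B cells and none in T cells. Of 6 plasmacytoid dendritic cell markers tested, 2 were called higher in B cells and 3 in T cells, against 9.85% and 10.6% of all genes. The defining members Xcr1 and Siglech were low. Wdfy4, which conventional dendritic cells use for cross-presentation, was at 917 ± 151 CPM (mean ± SD, n = 6) in B cells and 1.87 ± 1.83 in T cells (8.90 ± 0.67, 5.97e-07), while Xcr1, a defining receptor of those cells, was at no more than 1.70 in any library. Siglech, a defining marker of plasmacytoid dendritic cells, was at no more than 3.58 CPM in any library, whereas Irf8 and Ccr9 of the same list were lymphocyte genes here, called higher in B and in T cells. None of 9 platelet genes tested was called by edgeR or DESeq2, 2 had an unadjusted p under 0.05 in edgeR, and Itga2b had an adjusted p of 0.00204 at 0.98 on the log2 scale. A single platelet gene was called without B cell library 35, 38, 41 or 44 or T cell library 56, 62 or 65. Il1rl1, the receptor for IL-33 known from innate lymphoid, mast and regulatory T cells, was at 7.94 ± 2.91 CPM in T cells with 1 count in all B cell libraries.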
